A study of Homo sapiens with 6 samples.

Results

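Expression of neuropilins, semaphorins and plexins was followed after silencing of the ETV6/RUNX1 fusion in a leukemia cell line. The set held 10 genes: the neuropilins NRP1 and NRP2, the semaphorins SEMA4A, SEMA4D, SEMA6A and SEMA7A, and the plexins PLXNA1, PLXNB2, PLXNC1 and PLXND1. They were chosen by name with earlier results of the knockdown comparison on these same arrays known. Values of the knockdown comparison are therefore a description of these genes and not a test of them. On the array, 15 of the 34134 catalogue probes carried a RefSeq accession of a member, the named catalogue genes came to 19721, and the whole semaphorin, plexin and neuropilin family of the lists used here had 31 genes.

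REH cells, an established human line of B-cell precursor acute lymphoblastic leukemia that carries ETV6/RUNX1, were profiled on 6 one-color Agilent arrays. The 3 control arrays came from REH cells given a non-targeting short hairpin RNA (shRNA), and the 3 knockdown arrays from REH cells given an shRNA against the fusion. Both groups were thus virus-transduced cells of a single line, sorted for green fluorescent protein 3 days after transduction per the study's methods. By the same methods the control hairpin was itself an ETV6 hairpin, which did not target the fusion. The replicates were described by the study as biological triplicates, and the labels number them 1 to 3 in each group. The fused transcript joins ETV6, an ETS-family repressor, to RUNX1, a transcription factor of blood cell development.

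Semaphorins are secreted or membrane-bound ligands that were first known for steering growing axons and that also act on immune and endothelial cells. Plexins are their signalling receptors, and the intracellular part of a plexin acts on small GTPases and thereby on adhesion and the cytoskeleton. Neuropilins carry only a short intracellular part. They bind class 3 semaphorins together with a plexin, and they bind vascular endothelial growth factor (VEGF) together with VEGF receptors. In blood, NRP1 is known as a surface marker of plasmacytoid dendritic cells, and SEMA4D and SEMA4A act between lymphocytes and myeloid cells.

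Values are given on the generalised log2 scale of the normalization, on which an additive difference of 1 is a 2-fold change for bright probes, while changes of dim probes come out smaller than they are. Differences between groups are log2 fold changes, knockdown minus control. Levels of different probes are not comparable with each other. Each array had a normalized threshold, between 5.66 and 6.15, that was set from the negative control spots, and a probe was retained when it exceeded this on 2 of 3 arrays of a group. A retained probe was called when its adjusted p was under 0.05 in limma, with Benjamini-Hochberg adjustment over all 27490 retained probes. By these criteria 478 probes were called (1.74%), 352 of them lower in knockdown (1.28%) and 126 higher. At an unadjusted p under 0.05 there were 3447 (12.5%), a share against which the unadjusted counts of the lists below are to be read. When the arrays were scaled on spike-in probes instead, the median of all probes shifted by 0.35 and the split became 153 lower and 798 higher, so that every direction below is relative to the bulk of probes. All arrays lay on 1 slide, where control replicates 1 and 2 shared a row and control replicate 3 shared the other row with the 3 knockdown arrays.

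Of the 15 member probes, 11 were retained, standing for 8 genes, and 3 were called in knockdown. All 3 were lower and belonged to NRP1, with 2 probes, and SEMA6A, with 1. Of the 11 retained probes, 5 were lower and 6 higher, with a median log2 fold change of 0.01 beside -0.002 over all retained probes. The NRP1 and SEMA6A probes were also the only 3 of these 11 whose control and knockdown arrays did not overlap, which was the case for 18.9% of all retained probes with a value on every array. As the genes were picked with results of this contrast known, nothing is read from these counts against the background.

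The receptor NRP1, encoded on chromosome 10, was 2.58-fold to 3.33-fold lower in knockdown. Probe A_24_P928052, designed on NM_003873, measured 9.85, 9.73 and 9.71 on control replicates 1 to 3 and 8.06, 8.03 and 7.99 on the knockdown arrays. The 3 knockdown arrays lay below each control array, and arrays within a group differed little. The means were 9.77 ± 0.07 (SD, n = 3) and 8.03 ± 0.04, a log2 fold change of -1.74 (SE 0.09), which placed the probe at rank 46 among retained probes when ordered from the lowest fold change.

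The other NRP1 probe, A_24_P135322, is designed on NM_001024629, a further NRP1 transcript. It measured 9.21, 9.40 and 9.27 in control and 7.81, 8.01 and 7.97 in knockdown. Again the groups did not overlap, and the means of 9.30 ± 0.09 and 7.93 ± 0.10 differed by -1.37 (SE 0.10). The difference had the same sign and a like size in every same-numbered pair of arrays, from -1.78 to -1.71 on the first probe and from -1.40 to -1.30 on the second. Within the slide row that held both groups, the knockdown arrays were lower than control replicate 3 by log2 fold changes of -1.69 and -1.34. Both probes were called in each of the 17 alternative settings tried, with log2 fold changes from -1.90 to -1.39 on the first probe and from -1.55 to -1.02 on the second.

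SEMA6A, encoded on chromosome 5, is a transmembrane semaphorin whose known receptors are A-type plexins. Its probe A_24_P213478, designed on NM_020796, measured 5.97, 6.05 and 5.98 in control and 4.88, 4.95 and 5.06 in knockdown. No knockdown array reached the control arrays, and the means were 6.00 ± 0.04 and 4.96 ± 0.09, with a log2 fold change of -1.04 (SE 0.10). The scanner software flagged the probe as well above background on all 3 control arrays and on 0 knockdown arrays. The change is therefore only bounded, and by group means SEMA6A was at least 1.81-fold lower in knockdown. The bound sets the control mean against the mean over knockdown arrays of the dimmest probe flagged above background there, or of the probe's own value where that was higher.

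The signal of SEMA6A was close to the limit of the assay also in control. It exceeded the array's threshold on 2 arrays, control replicates 1 and 2, and was retained only through these. A filter of this kind favours differences in the direction measured. In pairs of the same number the difference was between -1.10 and -0.92, and against control replicate 3 alone it was -1.01. Its call was kept in 16 of 17 alternatives and lost with spike-in scaling, where the log2 fold change was -0.69. Across the alternatives the log2 fold change ran from -3.06 with the processed signal scaled on its upper quartile to -0.49 after normexp correction and quantile normalization.

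**Figure D1:**
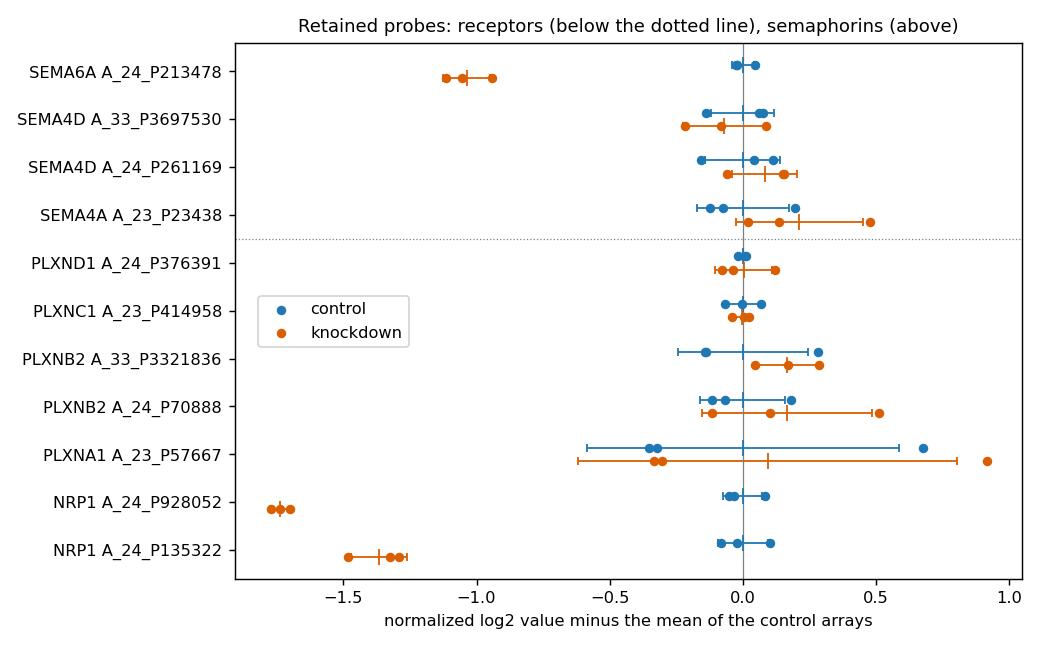
Normalized log2 value of each array minus the mean of the control arrays, for the 11 retained member probes, with control in blue and knockdown in orange (vertical tick, mean; bar, SD; n = 3). The 3 knockdown arrays of both NRP1 probes and of SEMA6A sit below every control array, while the groups overlap for the other 8 probes.

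The remaining semaphorins were examined next. SEMA4A, a membrane semaphorin known from dendritic cells and T cells, measured 7.57, 7.30 and 7.25 in control and 7.85, 7.39 and 7.51 in knockdown on A_23_P23438. The groups overlapped, and the log2 fold change was 0.21 (SE 0.15, 95% interval -0.13 to 0.56). SEMA4D, or CD100, the ligand of plexin B1 and of CD72 on B cells, had 2 probes. A_24_P261169 measured 8.82, 8.75 and 8.55 in control and 8.65, 8.86 and 8.86 in knockdown. Its log2 fold change was 0.08 (95% interval -0.18 to 0.35). A_33_P3697530, on NM_001142287, measured 8.11, 8.12 and 7.91 against 7.83, 7.97 and 8.13, with a log2 fold change of -0.07 (95% interval -0.34 to 0.20), the sign of which turned in 5 of 17 alternatives. The signs of the 2 SEMA4D probes were opposite and both intervals include 0. SEMA7A, a lipid-anchored ligand of plexin C1 and of an integrin, was not retained: its probe A_23_P106389 read 5.11 to 5.33 and was well above background on 0 arrays.

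Among the plexins, PLXND1, a receptor of vascular development, was near 12.4 on all arrays. It measured 12.40, 12.43 and 12.42 in control and 12.38, 12.34 and 12.54 in knockdown, so that its log2 fold change was 0.01 (95% interval -0.22 to 0.23). PLXNC1, the receptor of SEMA7A, measured 6.51, 6.38 and 6.44 in control and 6.45, 6.47 and 6.41 in knockdown on A_23_P414958. The difference was -0.004 (95% interval -0.22 to 0.21). Neither sign was stable: it turned in 3 of 17 alternatives for PLXND1 and in 6 of 17 for PLXNC1, whose log2 fold change ran from -0.04 to 0.35. PLXNC1 was dim, so that on this scale its interval may be too narrow for the change itself.

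PLXNB2, a broadly expressed plexin that binds class 4 semaphorins, was covered by 2 probes on NM_012401. A_24_P70888 measured 12.15, 11.90 and 11.85 in control and 12.48, 12.07 and 11.85 in knockdown, with a log2 fold change of 0.17 (95% interval -0.22 to 0.56). A_33_P3321836 measured 9.36, 8.94 and 8.93 against 9.36, 9.25 and 9.12, also with a log2 fold change of 0.17 (95% interval -0.16 to 0.49). Groups overlapped on both probes. NRP2, the paralog of NRP1, was not retained with any of its 3 probes, which read 4.72 to 5.24 and were well above background on 0 arrays. Whether NRP2 differed between the groups could not be measured on these arrays.

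PLXNA1, a co-receptor of the neuropilins for class 3 semaphorins, had the widest interval. Its probe A_23_P57667 measured 12.94, 11.94 and 11.91 in control and 13.18, 11.93 and 11.96 in knockdown. In each group, replicate 1 stood about 1 above replicates 2 and 3, and the knockdown difference of 0.09 (SE 0.39) had a 95% interval from -0.80 to 0.99. With the replicate number as a block the same difference had an SE of 0.09 and an interval from -0.13 to 0.32. Without single arrays it ran from -0.32 (without knockdown replicate 1) to 0.43 (without control replicate 1).

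Ligands and receptors of the set were then compared. Of the ligands, 4 of 5 probes were retained and 1 was called, with a median log2 fold change of 0.01. Of the receptors, 7 of 10 probes were retained and 2 were called, both of NRP1, with a median of 0.01. Each class thus held 1 called gene, and both medians were close to the median of all probes. Extending this to the whole family, 2 of 17 retained semaphorin probes were called, those of SEMA6A and SEMA5A, and 2 of 11 retained plexin and neuropilin probes, those of NRP1, beside 1.74% of all retained probes. The SEMA6A and SEMA5A probes were both retained only through control. No plexin probe was called among the 9 retained, and the log2 fold changes of the 9 ran from -0.004 to 0.42.

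**Figure D2:**
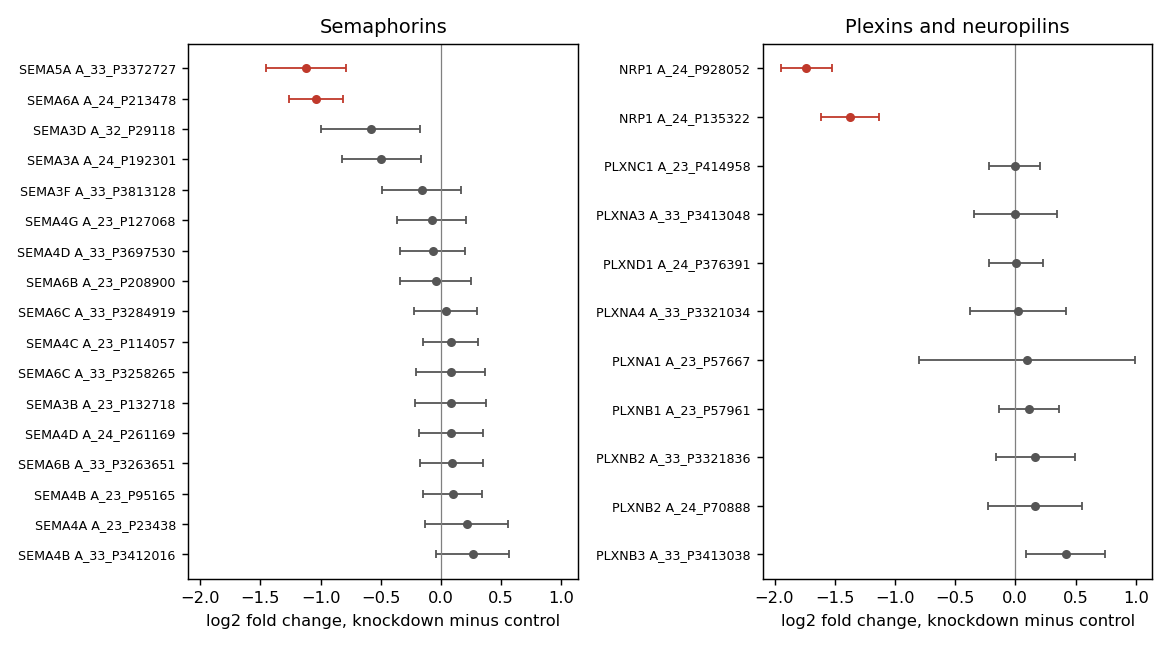
Log2 fold change (knockdown minus control) with its 95% interval for the 28 retained probes of the family, semaphorins on the left and plexins and neuropilins on the right, with called probes in red. The 4 called probes belong to NRP1, SEMA6A and SEMA5A and lie between -1.74 and -1.04.

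The 16 other semaphorins had 21 probes, of which 13 were retained and 1 was called. SEMA5A, a transmembrane semaphorin with thrombospondin repeats, measured 7.01, 6.54 and 6.98 in control and 5.80, 5.74 and 5.64 in knockdown on A_33_P3372727. Every control array lay above every knockdown array, and the log2 difference was -1.12 (SE 0.14, limma adjusted p = 0.00843). The probe exceeded the threshold on the 3 control arrays and on knockdown replicate 1, so it too was retained only through the group in which it was higher, and in knockdown it was well above background on 2 of 3 arrays. Without any filter adjusted p was 0.031. Across the alternatives the difference ran from -1.96 with upper-quartile scaling to -0.69 after normexp and quantile normalization. Its call was kept in 14 of 17 alternatives, and adjusted p was 0.0515 with spike-in scaling, 0.0503 with the slide row as a term and 0.0539 without knockdown replicate 3. Against control replicate 3, in the same slide row, the knockdown arrays were lower by a log2 fold change of -1.25.

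Direct partners of NRP1 are found among the secreted class 3 semaphorins, which were taken here as a whole class. Of 7 genes with 1 probe each, 4 were retained and 0 were called in limma (2 at an unadjusted p under 0.05), with a median log2 fold change of -0.33. SEMA3D measured 8.39, 7.91 and 8.10 in control and 7.85, 7.27 and 7.53 in knockdown. Its log2 difference was -0.58 (SE 0.18, limma adjusted p = 0.21, and 0.0201 with the replicate block). SEMA3A, the best-known ligand of NRP1 and named here after its values were seen, read 5.84 to 6.23 in control and 5.30 to 5.60 in knockdown. The log2 fold change was -0.50 (limma adjusted p = 0.182), and the probe was not well above background on the knockdown arrays. It was retained only through control, where it was higher, and it enters the median of this class. The largest positive differences among the other semaphorins were those of SEMA4B, a class 4 membrane semaphorin, with log2 fold changes of 0.26 and 0.10 on its 2 probes (limma adjusted p = 0.468 and 0.764).

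Of the 5 other plexins, 4 of 9 probes were retained, 1 for each of PLXNA3, PLXNA4, PLXNB1 and PLXNB3, and 0 were called in limma (1 at an unadjusted p under 0.05). PLXNB3 measured 5.71, 5.59 and 5.42 in control and 6.26, 5.88 and 5.83 in knockdown. The knockdown arrays lay above the control arrays, with a log2 difference of 0.42 (SE 0.14, limma adjusted p = 0.269), and the probe was well above background on 1 of 3 control arrays. It was retained only through the knockdown arrays, where it was higher, and its difference was 1.13 with upper-quartile scaling and 0.25 after normexp and quantile normalization. PLXNB1, the receptor of SEMA4D, had a log2 fold change of 0.11 (limma adjusted p = 0.719).

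Promoter sequences were read from a RefSeq table on GRCh38.p14 as the 250 bases before each gene start. The table held 13 such windows for 8 of the 10 members, and NRP1 and SEMA6A had no entry. Each window was searched on both strands for the RUNX motifs TGTGGT and TGCGGT and for the ETS motifs CGGAAG and AGGAAG. The ETS motifs share the letters GGAAG and the RUNX motifs differ in a single letter, so that no stretch was counted under more than 1 motif of a kind. A RUNX motif was found in 4 of the 13 windows, belonging to SEMA4A, SEMA7A and PLXNB2, while 16.3% of all 35116 promoters held one. An ETS motif was found in 7 of the 13, belonging to SEMA4A, SEMA7A, PLXNC1 and PLXND1, while 40.8% of all promoters held one. Neighbouring windows of SEMA4A overlap and share an AGGAAG site, which lies 36 bases before the first start and 121 before the next. That site is counted in both windows. The windows of 1 list gene and 1 member, picked after their values were seen, are shown: that of SEMA5A, the called semaphorin with an entry (chr5:9546076-9546325, minus strand, 82% G or C), and that of PLXNB2, a receptor with a RUNX match and no call (chr22:50301670-50301919, minus strand, 66.4% G or C). Both are written 5′ to 3′ toward the gene start, and capitals mark the TGTGGT match.
SEMA5A: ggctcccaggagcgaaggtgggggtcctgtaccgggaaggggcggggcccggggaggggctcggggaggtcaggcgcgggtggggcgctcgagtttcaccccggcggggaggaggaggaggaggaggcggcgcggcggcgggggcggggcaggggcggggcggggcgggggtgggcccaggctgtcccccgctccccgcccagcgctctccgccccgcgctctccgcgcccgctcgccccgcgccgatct
PLXNB2: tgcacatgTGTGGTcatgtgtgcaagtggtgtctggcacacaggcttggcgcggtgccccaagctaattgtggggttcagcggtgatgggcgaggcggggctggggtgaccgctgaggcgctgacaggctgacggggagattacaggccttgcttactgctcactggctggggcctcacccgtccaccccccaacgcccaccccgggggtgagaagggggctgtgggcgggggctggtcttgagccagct
The SEMA5A window held 0 matches to the 4 motifs, and the match of PLXNB2 began 242 bases before the start. Such matches describe the letters of the window only.

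Next, the genes around the neuropilins were described. The list of VEGF ligands and receptors had 8 genes and 9 probes, of which 6 were retained and 1 was called. FLT1, a VEGF receptor that binds VEGFA and PGF, measured 6.55, 6.45 and 6.14 in control and 5.34, 5.41 and 5.52 in knockdown. The groups did not overlap, and by group means FLT1 was at least 1.93-fold lower in knockdown (log2 fold change -0.95, SE 0.13, limma adjusted p = 0.0109), being well above background on all 3 control arrays and on 0 knockdown arrays. Like SEMA6A it exceeded the threshold on control replicates 1 and 2 alone, and was retained only through the group in which it was higher. Without any filter adjusted p was 0.0386. The bound holds for the normalization used here, as the log2 fold change ran from -2.29 with the processed signal scaled on its upper quartile to -0.55 after normexp correction and quantile normalization. Its call was kept in 13 of 17 alternatives. Adjusted p was 0.148 with spike-in scaling, 0.135 with the slide row as a term, 0.0659 without control replicate 2 and 0.0592 without knockdown replicate 2.

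PGF, the placental growth factor, had a log2 fold change of -0.38 (limma adjusted p = 0.428). VEGFA, the main VEGF ligand, had log2 fold changes of 0.71 (SE 0.59) and 0.42 (SE 0.46) on its 2 probes (limma adjusted p = 0.676 and 0.764), both retained only through knockdown. Without single arrays the first ran from 0.35 (without control replicate 2) to 1.39 (without control replicate 1), and the sign of the second turned without knockdown replicate 1 (-0.06). Leaving out a single array breaks a pair. In same-numbered pairs the second probe was higher in knockdown by 0.53, 0.36 and 0.37. With the replicate block its SE was 0.09 (limma adjusted p = 0.0636), and that of the first was 0.27 (limma adjusted p = 0.236). KDR, the principal VEGF receptor of endothelium, VEGFC and VEGFD were not retained.

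Co-receptors and receptors other than plexins came to 12 genes and 14 probes, with 6 retained and 0 called in limma (3 at an unadjusted p under 0.05). CD72, the B-cell receptor of SEMA4D, measured 10.71, 10.67 and 10.20 in control and 11.12, 11.10 and 10.66 in knockdown. These groups overlapped, although each knockdown array was above the control array of its number, and the log2 fold change was 0.43 (limma adjusted p = 0.373, and 0.0482 with the replicate block). ERBB2, a receptor tyrosine kinase that associates with plexin B proteins, had a log2 fold change of 0.32 (limma adjusted p = 0.232). ITGB1, an integrin chain, had one of -0.27 (limma adjusted p = 0.334), and MET, the receptor of hepatocyte growth factor, one of -0.23 (limma adjusted p = 0.491) and was retained only through control. With spike-in scaling the signs of ITGB1 and MET turned.

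Intracellular signalling downstream of plexins and neuropilins was covered by 38 genes and 55 probes, of which 44 were retained and 0 were called in limma (7 at an unadjusted p under 0.05). FES, a tyrosine kinase that binds plexin A1, measured 9.48, 9.40 and 9.38 in control and 9.88, 9.95 and 9.81 in knockdown. Its knockdown arrays all lay above the control arrays, with a difference of 0.46 on the log2 scale (SE 0.09, limma adjusted p = 0.0596, and 0.0447 with the replicate block). It was called in 4 of 17 alternatives, the others being normexp with quantile normalization (0.036), the trend and robust prior (0.0491) and spike-in scaling (0.0354). GIPC1, the adaptor that binds the intracellular end of NRP1, had a log2 difference of -0.43 (SE 0.14, limma adjusted p = 0.24). SH3BP1, a GTPase-activating protein of plexin signalling, had one of 0.38 (limma adjusted p = 0.276). MRAS, a small GTPase of the Ras group, had the lowest fold change of the list at -1.16 (limma adjusted p = 0.601). It rested on control replicate 1, which read 9.55 against 6.13 and 6.60 on the other control arrays and 6.02 to 6.58 in knockdown, and without that array the value was -0.10.

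Over the 5 lists outside the members, 2 of 73 retained probes were called, SEMA5A and FLT1, beside 1.74% of all retained probes. With the replicate block 5 were called, which added SEMA3D, FES and CD72, and the share over all probes was 3.78%. The median log2 fold change of the 73 was 0.02.

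**Figure D3:**
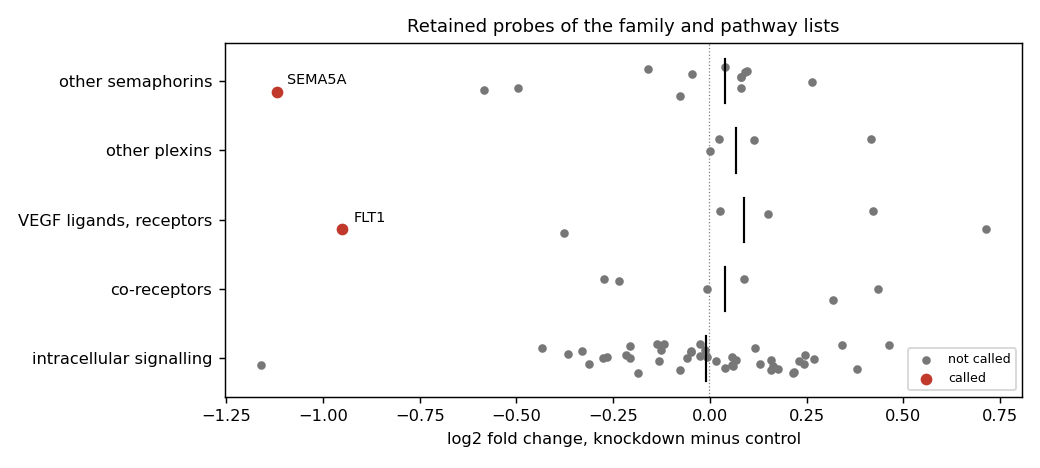
Log2 fold change (knockdown minus control) of the 73 retained probes of the 5 family and pathway lists, 1 point per probe with vertical jitter, called probes in red, the median of each list as a black line and the median of all retained probes dotted. Only SEMA5A at -1.12 and FLT1 at -0.95 were called, and the list medians lie between -0.01 and 0.09.

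The third comparison asked how the members varied among replicates. Replicate 1 was set against replicates 2 and 3 with the group kept in the model, a contrast that did not choose the members although it was taken from an earlier report on these data. It called 1563 of all retained probes (5.69%), 1005 higher and 558 lower in replicate 1. Of the 11 member probes, 1 was called. This was PLXNA1, which was higher in replicate 1 by 1.13 on the log2 scale (SE 0.09, limma adjusted p = 0.00151), in both groups alike. It was also called in the other 6 settings in which this contrast was run.

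PLXNB2 differed in the same direction by 0.39 on A_24_P70888 (limma adjusted p = 0.0776) and by 0.30 on A_33_P3321836 (limma adjusted p = 0.118). The former was called after normexp correction with quantile normalization (adjusted p = 0.0413) and with an intensity trend and robust prior (adjusted p = 0.0272). SEMA4A differed by 0.35 (limma adjusted p = 0.0678). NRP1, with differences of 0.09 and -0.15 on its 2 probes, and SEMA6A, with -0.08, were not called (limma adjusted p = 0.555, 0.346 and 0.641).

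Among the other lists, VEGFA was higher in replicate 1 on both probes, by 1.5 (limma adjusted p = 0.0441) and 1.36 (limma adjusted p = 0.00077). The latter measured 6.66, 5.39 and 5.39 in control and 7.20, 5.75 and 5.76 in knockdown. PGF was higher in replicate 1 by 0.43 (limma adjusted p = 0.0479) and FYN, a Src-family kinase downstream of plexin A proteins, by 0.55 (limma adjusted p = 0.0336). TIAM1, an exchange factor for RAC1, was lower by 0.39 on 1 probe, A_33_P3381751, on which replicate 1 read 9.81 in control and 10.05 in knockdown, with the other arrays between 10.15 and 10.43 (limma adjusted p = 0.047).

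Cell type markers differed in the same contrast. Both retained stromal probes were higher in replicate 1, COL1A1 by 0.63 (limma adjusted p = 0.0168) and PDGFRB by 0.61 (limma adjusted p = 0.0319), as was IRF7 by 0.73 (limma adjusted p = 0.0249). Of the B-cell precursor markers, 1 probe each of IGLL1 (-0.57, limma adjusted p = 0.0194) and MME (-0.52, limma adjusted p = 0.0287) was lower. Their part in the PLXNA1 difference was not tested.

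**Figure D4:**
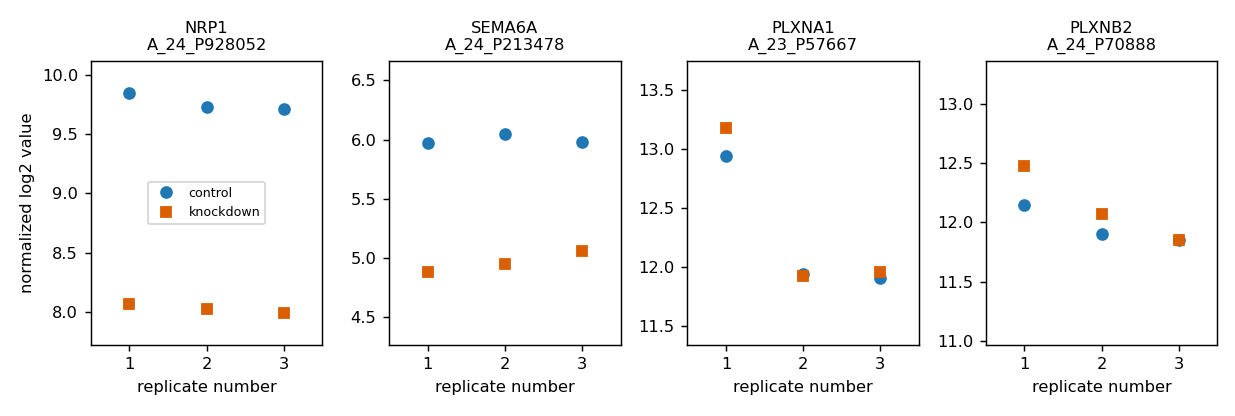
Normalized log2 value by replicate number for NRP1, SEMA6A, PLXNA1 and PLXNB2, control as blue circles and knockdown as orange squares. Each panel has its own position but the same span of 2.4. NRP1 and SEMA6A separate by group on every replicate number, whereas PLXNA1 stands at 12.94 and 13.18 on replicate 1 and between 11.91 and 11.96 on the other arrays.

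The targeted transcript and the identity of the cells were examined on the same arrays. Of 2 ETV6 probes, A_33_P3356325 measured 7.92, 8.05 and 8.37 in control and 7.50, 7.46 and 7.29 in knockdown. The groups did not overlap, but with limma the difference of -0.70 (SE 0.14) reached an adjusted p of 0.0513 and was not called. The study reported the silencing from other measurements, a western blot of the fusion protein and RT-qPCR of its transcript. It also states that REH cells have lost their wild-type ETV6 allele. The other ETV6 probe was well above background on 0 arrays, and where either probe lies relative to the fused portion was not analysed here. Of the B-cell precursor markers, 14 of 16 probes were retained, for 9 of 10 genes, and 0 were called in limma (5 at an unadjusted p under 0.05, all higher in knockdown). With the replicate block 3 were called, beside 3.78% of all retained probes. All 3 were higher in knockdown: IGLL1, part of the surrogate light chain, by 0.68 and 0.53 on its 2 probes (limma adjusted p = 0.0132 and 0.0379) and CD79B, a chain of the B-cell receptor, by 0.55 (limma adjusted p = 0.0367). The linear signals of the list summed to 245000 to 252000 in control and 278000 to 332000 in knockdown.

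Of the marker lists of other cell types, 3 held a gene that was called lower beside NRP1, SEMA6A and FLT1, and their other retained genes were not called. Myeloid markers summed to 15400 to 17000 in control and 3670 to 5440 in knockdown, with 3 of 4 probes retained, where MPO, the granule enzyme myeloperoxidase, fell by 2.02 (limma adjusted p = 0.00107). CD14 and CSF1R had log2 fold changes of -0.13 and -0.05 (limma adjusted p = 0.68 and 0.923), and CD33 was not retained. Plasmacytoid dendritic cell markers summed to 22600 to 23700 and 13800 to 20000, with 3 of 4 probes retained, where TCF4, a transcription factor also active in B-cell precursors, fell by 0.92 (limma adjusted p = 0.00329). IRF7 and LILRA4 had log2 fold changes of 0.12 and -0.08 (limma adjusted p = 0.894 and 0.858). CLEC4C, the defining marker of that cell type, was not retained. Endothelial markers summed to 753 to 886 and 461 to 562, with 4 of 7 probes retained, where the adhesion molecule PECAM1 fell on 3 probes by 0.68 to 1.14 (limma adjusted p = 0.0121 to 0.0463). The probe with 0.68, A_33_P3229402, was retained only through control. It was well above background on 0 knockdown arrays, so the size of its fall is uncertain. CDH5 had a log2 fold change of 0.02 (limma adjusted p = 0.958), and KDR, TEK and VWF were not retained. T cell markers, with 5 of 6 probes retained, summed to 378 to 633 and 380 to 593, and stromal markers, with 2 of 5, to 512 to 689 and 576 to 911. The part of these markers in the neuropilin and semaphorin values was not tested, and in a bulk sample fewer cells of a type and less RNA per cell cannot be told apart.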

How the data were processed

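Total RNA of 6 REH samples, 3 control and 3 knockdown, was labelled with Cy3 per the labels, and the authors extracted spots with Feature Extraction 10.7.1.1. The deposited scanner files give spot and local background intensities, a processed intensity, and other values (outlier and background flags), none normalized between arrays. The authors also deposited normalized log2 values of 27869 probes (VSN, background subtraction and a negative control filter per the methods), used as an alternative. Against these, values computed here had Pearson's r of 0.99906 to 0.99967 per array, across probes.

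The VSN model was rewritten (one scale and offset per array, then an inverse hyperbolic sine, keeping the best-fitting 0.9 of probes) and applied to the median spot intensity. Flagged outlier spots were removed and spots of a probe averaged. Probes over 1.1 times the 0.95 quantile of 308 negative control spots, on the normalized scale, on 2 of 3 arrays of a group were retained, 27490 of 57176. The comparison used limma 3.58.1 (R 4.3.3; lmFit and eBayes, two-sided, Benjamini-Hochberg adjustment) without a block, as the methods name none. Scripts were tested on simulated data. Deviations of same-numbered arrays correlated at 0.426, 0.287 and 0.204, so the replicate numbers of the labels were taken as pairs in a blocked fit. Values without mention of the block are from the unpaired fit. The blocked fit is given where it changed a call, and for PLXNA1 and VEGFA. It also lowered limma adjusted p without a call, for GIPC1 from 0.24 to 0.0584, PLXNB3 from 0.269 to 0.0734 and PGF from 0.428 to 0.108. Median raw intensity was 66 to 75 per array against 42.3 to 48.0 for negative controls, and 45.7% to 51.0% of probes were well above background. With 3 arrays per group, their number limits the precision.

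Catalogue probes were named through RefSeq accessions on GRCh38.p14 (25728 of 34134, 75.4%). The array design is on hg19 and no probe coordinates are given. Members and lists were chosen with earlier results of these data known. All members were named, and of each other list the called genes and the 2 largest rises and 2 largest falls. Alternatives covered normalization, filter, scaling, variance prior, replicate block, slide row, averaging per gene and left-out arrays.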

Additional observations from a re-analysis of the deposited data

How the results depend on the processing

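Each NRP1 probe was called under all 17 alternatives, SEMA6A under 16, SEMA5A under 14 and FLT1 under 13. The median log2 fold change of receptor probes was 0.139 with upper-quartile scaling of the processed signal and 0.357 with spike-in scaling. That of ligand probes was 0.357 with spike-in scaling and 0.155 with the slide row as a term. Calls over all probes numbered 224 with no filter, 951 with spike-in scaling, 227 with the slide row and 1038 with the replicate block (666 lower, 372 higher). Of the 478, the block kept all, spike-in scaling 242 and the slide row 109. Without single arrays they ran from 191 to 553, with 282, 191 and 258 without control replicates 1, 2 and 3 and 214 and 205 without knockdown replicates 2 and 3. A left-out array leaves 2 arrays in its group. Calls in the 5 other lists numbered 4 with spike-in scaling (VEGFA A_23_P70398, MRAS, CD72 and FES, without SEMA5A and FLT1), 3 with normexp and quantile normalization and with the trend and robust prior, where FES was added, 5 with the replicate block and 0 with the slide row (limma), and 1 to 2 without single arrays, the 1 arising without control replicate 2 and without knockdown replicate 2, where FLT1 was lost, and without knockdown replicate 3, where SEMA5A was lost. Beside SEMA3D, FES and CD72 the block added calls for IGLL1 and CD79B and changed no other call of a named gene. Replicate 1 called 2 member probes after normexp and quantile normalization and with the trend and robust prior. Signs turned for ITGB1 (0.0751) and MET (0.116) with spike-in scaling and for VEGFA A_24_P12401 without knockdown replicate 1, where single arrays left out gave -0.0592 to 0.845, none of them called. Among members without a call, signs turned in 6 alternatives for PLXNC1, 5 for SEMA4D A_33_P3697530, 3 each for PLXNA1 and PLXND1 and 1 for PLXNB2 A_24_P70888. ETV6 was called with the trend and robust prior (adjusted p = 0.0436) and without replicate 1 of both groups (0.0309). The causes of these shifts were not tested. Probes near the threshold, such as SEMA6A, are limited by signal over background.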

Other observations

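In the semaphorin, plexin and neuropilin family, probes of 3 semaphorins that were not retained were well above background on 1 array alone. SEMA3G, a class 3 semaphorin, read 7.01 on control replicate 1 and 5.05 to 5.50 on the other 5 arrays. SEMA3E, the ligand of plexin D1, read 6.15 on control replicate 2 and 4.44 to 5.04 elsewhere. SEMA4F read 5.95 on knockdown replicate 1 and 4.81 to 5.01 elsewhere on A_23_P165608.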
